A study of Arabidopsis thaliana with 4 samples.

Results

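UDP-glucosyltransferases (UGT) and beta-glucosidases (BGLU) were followed in dark-grown Arabidopsis thaliana seedlings of the wild type and of a line carrying ein3-1 and eil1-1. The members were the genes whose platform symbol began with UGT or BGLU followed by a number, together with PYK10, where the annotation paired the probe set with exactly 1 gene. This gave 68 genes, 47 UGT and 21 BGLU including PYK10, each with 1 probe set, of 13513 probe sets paired with 1 gene and 22810 on the array. IAGLU, a glucosyltransferase gene with a different symbol, was left out by that rule. RefSeq lists 58 genes with a UGT symbol and 41 with a BGLU symbol or PYK10, and the genes without such a probe set were not analysed here.

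RNA came from whole seedlings grown on MS medium for 4 days in darkness at 22 °C, after 3 days in the cold and 4 hours of light to start germination. The wild type was Columbia (Col-o in the labels), and the mutant, called ein3 eil1 from here on, carried both mutations in all its cells. Per the labels, the mutant seedlings hold more protochlorophyllide, a chlorophyll precursor, than the wild type. No treatment was given and the number of seedlings pooled was not stated. Each genotype had 2 Affymetrix ATH1 arrays, and the comparison asks which transcripts differ when EIN3 and EIL1, transcription factors of ethylene signalling, are impaired. In each genotype, 1 title is unmarked (replicate 1) and 1 is called a biological replicate (replicate 2). The unmarked arrays are the first title pair and the others the second.

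UGT enzymes move a sugar, usually glucose from UDP-glucose, onto hormones, phenolics and other small molecules, which changes how these are stored, transported or inactivated. Beta-glucosidases remove glucose from such conjugates, and in Arabidopsis several act on phenolic glucosides or on glucosinolates once plant tissue is damaged. PYK10 is the main beta-glucosidase of ER bodies, compartments that are abundant in seedlings and roots. In a whole seedling, fewer cells of a type and less RNA per cell cannot be told apart.

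Values are quantile-normalised log2(signal + 3), and differences are ein3 eil1 minus wild type (2 arrays of each, n = 2). EIN3, the targeted gene with a named probe set, read 9.73 and 10.24 in wild type against 6.51 and 7.22 in the mutant (limma adjusted p = 0.014). The region read by that probe set was not compared with the lesion. The deposited array medians ran from 49.5 to 85.2, and ein3 eil1 replicate 2 was the brightest. Bacillus control probe sets split the arrays by title pair, with means of 7.86 and 7.95 in the first pair and 6.37 and 6.40 in the second. Of the organ markers fixed for the seedling, 7 were tested, and 0 passed limma's threshold, while 1, PRK, had an unadjusted p under 0.05. PYK10 for roots, SPCH for the stomatal lineage and ICL for reserve mobilisation differed by -0.01, -0.24 and -0.02. PYK10 is also a member of the set described here. The other named root markers, EXPA7 and EXPA18, were too dim to test. EXPA7 differed by -0.96, with both mutant arrays below both wild-type arrays, and EXPA18 by 0.48 with overlap. LHCB4.1 and LHCB4.2 for photosynthetic tissue differed by 0.12 and 0.14 and SBPASE by -0.58. PRK differed by -0.90 and passed with the title pair as a block (adjusted p = 0.024). Their part in the results below was not tested.

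A gene was tested if its signal reached the array's 40th percentile, a deposited signal between 28.2 and 46.7, on at least 2 arrays. Of all probe sets other than controls, 38.3% were not tested. Among the UGT genes, 27 were tested and 20 (42.6%) were not, and 17 reached that level on all 4 arrays. Among the BGLU genes, 10 were tested and 11 (52.4%) were not, and 8 reached it on all 4 arrays. The deposited signals of the genes that were not tested ran from 0.5 to 43.0 for UGT and from 1.0 to 39.7 for BGLU. UGT84A3, UGT73B5 and BGLU45 passed the filter only through the 2 mutant arrays, so counts over the tested genes lean towards higher signals in the mutant.

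No member passed the threshold of 0.05 in limma's comparison, whose adjusted p over all 14031 tested probe sets ran from 0.197 to 0.9997 for the members. Over all tested probe sets, 0.0784% were called higher and 0.214% lower. At an unadjusted p under 0.05, 7 members were higher (background 3.04%) and 1 was lower (background 3.1%). The 7 were UGT71B1, UGT72E1, UGT74B1, UGT84A3, BGLU25, BGLU45 and BGLU46, and the 1 was UGT76C2. Among the 7, UGT84A3 and BGLU45 passed the filter through the mutant arrays alone, which favoured the higher direction. With the title pair as a block, a fit that leaves 1 residual degree of freedom per probe set, 4 members passed as higher (UGT71B1, UGT72E1, BGLU25 and BGLU46; background 1.26%) and 1 as lower (UGT76C2; background 1.53%).

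The mutant mean was above the wild-type mean in 20 of the 27 tested UGT genes and in 7 of the 10 tested BGLU genes, where the background was 51.1%. With the signals left as deposited, where the median over all tested probe sets was 0.40, these counts were 23 and 9. Relative to that shift they were 20 and 6. Over all 68 members with no filter, the mutant mean was higher in 30 of 47 UGT and 13 of 21 BGLU genes (background 50.2%). With no filter, both mutant arrays lay above both wild-type arrays in 16 UGT and 7 BGLU genes (background 16.4%) and below them in 4 and 3 (background 16%). The median difference was 0.36 for the tested UGT genes and 0.21 for the tested BGLU genes, against 0.01 for all tested probe sets. The UGT median was 0.08 in the first title pair and 0.52 in the second. The BGLU medians were 0.23 and 0.18. In the tested UGT genes the array medians were 6.79 and 6.35 in wild type against 6.83 and 6.81 in the mutant. Among these, only the second wild-type array stood low. For the tested BGLU genes they were 7.27 and 7.27 against 7.80 and 7.51. With the second wild-type array left out the UGT median difference was 0.16, and with the first left out it was 0.53. Leaving out a mutant array gave 0.35 (replicate 1) or 0.31 (replicate 2). Among the tested genes, both mutant arrays lay above both wild-type arrays in 11 UGT and 3 BGLU genes (background 16.5%) and below them in 2 UGT and 1 BGLU gene (background 15.1%). With a difference of at least 2-fold as well, 5 members were higher (UGT72B3, UGT72E1, UGT84A3, BGLU25 and BGLU45, background 1.84%) and 1, UGT76C2, was lower (background 1.87%). The counts of tested genes that were higher include UGT73B5, UGT84A3 and BGLU45, the last 2 also in the 2-fold count. These passed the filter through the mutant arrays alone, which favoured that direction.

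**Figure D1:**
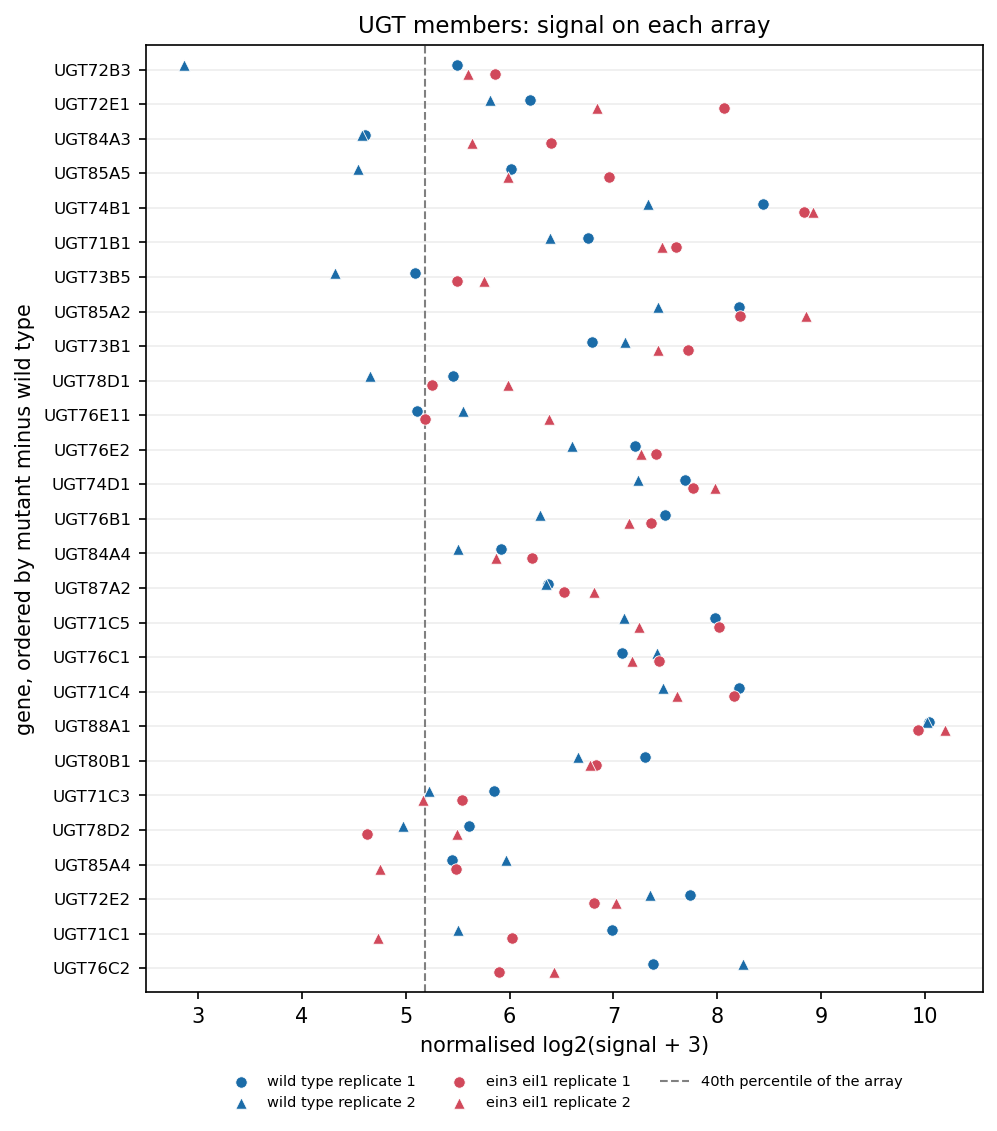
Normalised log2(signal + 3) of the 27 tested UGT genes on each array, with wild type in blue, ein3 eil1 in red, circles for replicate 1 and triangles for replicate 2. Genes are ordered by the difference between genotypes, from UGT76C2 (-1.65) at the bottom to UGT72B3 (1.55) at the top, and the dashed line marks the 40th percentile of the array.

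The tested members listed here as acting on hormones ranged from -1.65 to 0.41. UGT76C2 encodes a cytokinin N-glucosyltransferase, an enzyme that inactivates cytokinins. It read 7.38 and 8.24 in wild type against 5.90 and 6.42 in the mutant, with deposited signals of 144.8, 247.4, 49.7 and 125.1 in the same order. Both mutant arrays lay below both wild-type arrays. The difference was -1.65 (SE 0.37, limma adjusted p = 0.197, and 0.0012 with the block), with -1.48 in the first title pair and -1.82 in the second. It passed without wild type replicate 1 (-2.06, limma adjusted p = 0.0038) and without ein3 eil1 replicate 2 (-1.90, limma adjusted p = 0.0038). It did not pass without wild type replicate 2 (-1.24, limma adjusted p = 0.278) or without ein3 eil1 replicate 1 (-1.38, limma adjusted p = 0.166).

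UGT76C1, also a cytokinin N-glucosyltransferase gene, lies next to UGT76C2 in the RefSeq gene order on chromosome 5. It read 7.08 and 7.42 in wild type against 7.44 and 7.18 in the mutant, and the genotypes overlapped. Its difference was 0.06 (SE 0.29). Within each array, UGT76C2 relative to UGT76C1 differed between genotypes by -1.85 in the first title pair and -1.58 in the second, a mean difference of -1.71. An exact permutation test of that contrast, two-sided, gave p = 0.333, the smallest that 2 against 2 arrays allow. The neighbours UGT71C4 and UGT71C3, BGLU45 and BGLU46, and UGT84A3 and UGT84A4 gave the same p, so it does not set this contrast apart.

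The other hormone-related genes showed smaller differences. UGT74D1, which glucosylates auxin, read 7.69 and 7.24 in wild type against 7.77 and 7.97 in the mutant, a difference of 0.41 (SE 0.30). The mutant arrays lay above the wild-type arrays, by 0.08 in the first title pair and 0.74 in the second. UGT76B1, which glucosylates isoleucic acid and salicylic acid, read 7.50 and 6.30 in wild type against 7.36 and 7.15 in the mutant. UGT71C5, which glucosylates abscisic acid, read 7.98 and 7.10 in wild type against 8.02 and 7.25 in the mutant. Both overlapped between genotypes, with differences of 0.36 (SE 0.40) and 0.09 (SE 0.39).

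Of the 10 members listed here as hormone-related, 5 were too dim to test, and the list may not be complete. The 5 were UGT74F1 for salicylic acid, UGT71B6 and UGT71B8 for abscisic acid, UGT84B1 for auxin, and BGLU33, which releases abscisic acid from its glucose ester. UGT74F1 had deposited signals of 16.5 and 29.1 in wild type against 4.4 and 14.6 in the mutant. UGT71B6 had 0.9 and 4.8 against 5.4 and 3.3, and UGT71B8 had 20.2 and 9.9 against 8.6 and 15.7. UGT84B1 had 1.7 and 5.7 against 1.1 and 9.2, and BGLU33 had 6.2 and 17.2 against 15.6 and 31.3. All 5 lay below the 40th percentile on every array, where signals carry little information on a difference.

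Of 9 members that act on phenylpropanoids and other phenolics, 6 were tested, 2 of them, UGT84A3 and BGLU45, through the mutant arrays alone. The mutant mean was higher in 5 of the 6 (background 51.1%). UGT84A3 and BGLU45 were 2 of these 5, and passing the filter through the mutant arrays alone favoured that direction. The differences of the 6 ran from -0.63 to 1.46. UGT72E1, which glucosylates monolignol aldehydes, read 6.20 and 5.81 in wild type against 8.06 and 6.84 in the mutant. Both mutant arrays were above both wild-type arrays, and the mutant arrays differed from each other by 1.22. The difference was 1.45 (SE 0.42, limma adjusted p = 0.414, and 0.0067 with the block), with 1.87 and 1.03 in the title pairs. It was 2.04 without ein3 eil1 replicate 2 (limma adjusted p = 0.0014) and 0.84 without ein3 eil1 replicate 1 (limma adjusted p = 0.9997).

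UGT72E2, which glucosylates the monolignol alcohols, went the other way in its mean. It read 7.74 and 7.35 in wild type against 6.81 and 7.02 in the mutant, so that both mutant arrays lay below both wild-type arrays. The difference was -0.63 (SE 0.29, limma adjusted p = 0.849). Within each array, UGT72E1 relative to UGT72E2 was higher in the mutant by 2.79 in the first title pair and 1.36 in the second, again with an exact permutation p of 0.333. UGT72E3 was too dim to test, with deposited signals from 2.2 to 28.5.

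BGLU45 and BGLU46 are neighbours on chromosome 1 and encode beta-glucosidases that hydrolyse monolignol glucosides. BGLU46 read 6.66 and 6.55 in wild type against 7.53 and 7.53 in the mutant. The wild-type arrays lay 0.10 apart, both mutant arrays were above them, and the difference was 0.93 (SE 0.27, limma adjusted p = 0.421, and 0.045 with the block). BGLU45 read 4.38 and 3.91 in wild type, below the 40th percentile, against 5.27 and 5.93 in the mutant. Its difference was 1.46 (SE 0.56, limma adjusted p = 0.704, and 0.293 with the block), with 0.90 and 2.01 in the title pairs.

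UGT84A3 and UGT84A4, neighbours on chromosome 4, make glucose esters of hydroxycinnamates. UGT84A3 read 4.61 and 4.58 in wild type against 6.40 and 5.64 in the mutant, a difference of 1.43 (SE 0.46, limma adjusted p = 0.524). Both mutant arrays lay above both wild-type arrays, which were below the 40th percentile. UGT84A4 read 5.92 and 5.50 in wild type against 6.22 and 5.87 in the mutant and overlapped between genotypes, with a difference of 0.33 (SE 0.35). The other members that act on phenolics, UGT84A1 and UGT76D1, were too dim to test. Of 15 listed genes for phenylpropanoid and monolignol synthesis, 2 were named and tested, and 0 passed or had an unadjusted limma p under 0.05. HCT, a hydroxycinnamoyl transferase, differed by 0.07. CCR2, a cinnamoyl-CoA reductase, differed by 0.97, and its wild-type arrays lay 2.30 apart.

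**Figure D2:**
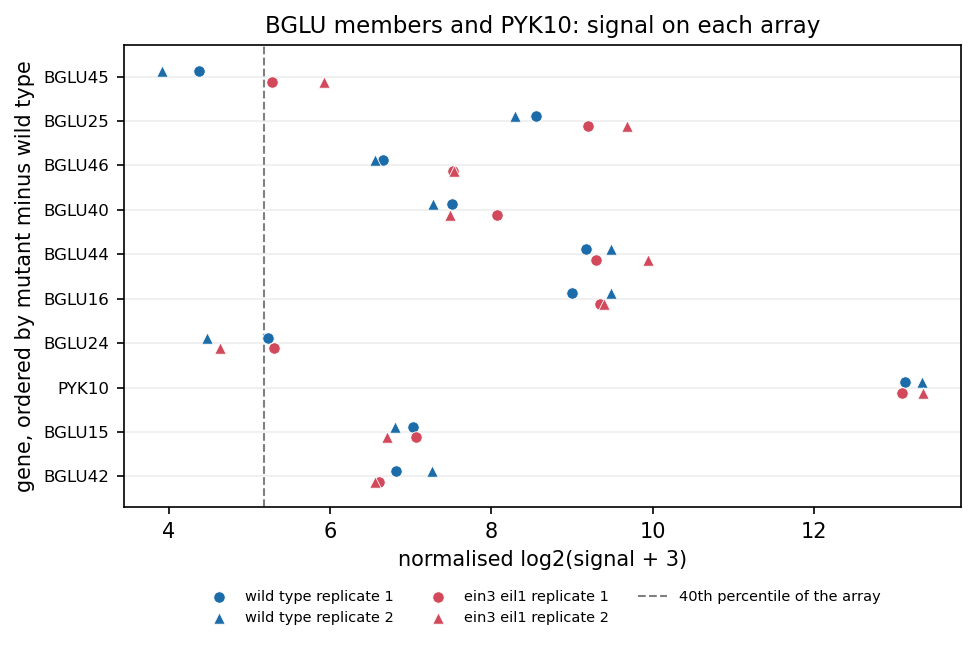
Normalised log2(signal + 3) of the 10 tested beta-glucosidase genes on each array, with wild type in blue, ein3 eil1 in red, circles for replicate 1 and triangles for replicate 2. BGLU45, BGLU25 and BGLU46 have both red symbols to the right of both blue symbols, BGLU42 has both to the left, and PYK10 lies between 13.09 and 13.35 on all 4 arrays.

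In glucosinolate metabolism, UGT74B1 glucosylates the thiohydroximate precursor of glucosinolates. It read 8.44 and 7.34 in wild type against 8.83 and 8.92 in the mutant. The mutant arrays lay above the wild-type arrays, which were 1.10 apart. The difference was 0.99 (SE 0.39, limma adjusted p = 0.728), with 0.39 in the first title pair and 1.59 in the second, and it depended on the wild-type arrays. It was 1.53 without wild type replicate 1 (limma adjusted p = 0.047) and 0.44 without wild type replicate 2 (limma adjusted p = 0.9997).

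PYK10, which hydrolyses the coumarin glucoside scopolin and indole glucosinolates, differed by less than the spread between arrays. It read 13.13 and 13.34 in wild type against 13.09 and 13.35 in the mutant. The genotypes overlapped, with a difference of -0.01 (SE 0.19). Of 22 listed genes for ER bodies and glucosinolate breakdown, 5 were named on the array and 4 of these tested, and 0 passed in either fit or had an unadjusted limma p under 0.05. Their median difference was 0.22. JAL22, a jacalin-related lectin gene, differed by 0.50 (SE 0.23), and NAI2, which is needed to form ER bodies, by 0.29 (SE 0.51). The listed genes for glucosinolate synthesis and for UDP-sugar supply had no named probe set and were not analysed here.

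Flavonoid-related members differed by less than the spread between arrays of a genotype. UGT78D1, a flavonol rhamnosyltransferase, read 5.46 and 4.65 in wild type against 5.25 and 5.98 in the mutant. UGT78D2, a flavonoid glucosyltransferase, read 5.61 and 4.97 in wild type against 4.63 and 5.49 in the mutant. BGLU15, which acts on flavonol glycosides, read 7.03 and 6.80 against 7.06 and 6.70. All 3 overlapped between genotypes, and their differences were 0.56, -0.23 and -0.03. All 3 had opposite signs in the title pairs. UGT78D3 was too dim to test, as were DFR, BAN and 5MAT, the named genes among 16 listed for flavonoid and anthocyanin synthesis.

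The remaining tested members act on sterols or are given no substrate here. UGT80B1, a sterol glucosyltransferase gene, differed by -0.18 (SE 0.31). UGT71B1 read 6.75 and 6.39 in wild type against 7.60 and 7.47 in the mutant, with no overlap. Its difference was 0.97 (SE 0.28, limma adjusted p = 0.437, and 0.038 with the block), with 0.85 and 1.08 in the title pairs. BGLU25 read 8.55 and 8.29 in wild type against 9.20 and 9.69 in the mutant, also with no overlap. Its difference was 1.02 (SE 0.31, limma adjusted p = 0.446, and 0.047 with the block), with 0.65 and 1.40 in the title pairs.

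The differences of UGT72B3 and UGT85A5 changed with the wild-type array that was left out. UGT72B3 read 5.49 and 2.87 in wild type against 5.86 and 5.60 in the mutant. The difference of UGT72B3 was 1.55 (SE 0.82, limma adjusted p = 0.926), against 0.36 in the first title pair and 2.74 in the second. UGT85A5 read 6.02 and 4.54 in wild type against 6.96 and 5.98 in the mutant, a difference of 1.19 (SE 0.55, limma adjusted p = 0.840) with overlapping genotypes. Replicate 2 read lower than replicate 1 in each genotype. Within the title pairs UGT85A5 differed by 0.94 and 1.45 (limma adjusted p = 0.065 with the block). Without wild type replicate 1 the differences of UGT72B3 and UGT85A5 were 2.87 and 1.93, and without wild type replicate 2 they were 0.24 and 0.46. Without ein3 eil1 replicate 1 they were 1.44 and 0.72, and without ein3 eil1 replicate 2 they were 1.62 and 1.63.

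UGT85A2, next to UGT85A5 on chromosome 1, had a difference of 0.72, which was 0.01 in the first title pair and 1.43 in the second. UGT73B1 and UGT73B5, of the same subfamily, had differences of 0.62 and 0.92 with both mutant arrays above both wild-type arrays. UGT73B1 reached the filter level on every array. UGT73B5 passed the filter through the mutant arrays alone, which favoured that direction, and its wild-type deposited signals were 26.4 and 17.3. The neighbours UGT71C5, UGT71C4 and UGT71C3 differed by 0.09, 0.04 and -0.18, and UGT71C1 by -0.86 with overlapping genotypes. For UGT71C1, replicate 2 read lower than replicate 1 in each genotype. Its differences in the title pairs were -0.96 and -0.77 (limma adjusted p = 0.213 with the block). In all, 20 adjacent pairs of members were found in the RefSeq gene order, and in 6 of them both genes were tested.

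Among the other beta-glucosidases, BGLU42, which takes part in the release of coumarins from roots, had both mutant arrays below both wild-type arrays. It read 6.82 and 7.26 in wild type against 6.61 and 6.56 in the mutant, a difference of -0.45 (SE 0.29). The difference was -0.05 with the signals left as deposited, and -0.23 without wild type replicate 2. BGLU40, BGLU44, BGLU16 and BGLU24 overlapped between genotypes, with differences from 0.11 (BGLU24) to 0.38 (BGLU40). The UGT genes not yet described had differences of 0.46 (UGT76E11), 0.43 (UGT76E2), 0.31 (UGT87A2), 0.03 (UGT88A1) and -0.58 (UGT85A4). Of these, UGT76E2 and UGT87A2 had both mutant arrays above both wild-type arrays, as did 16.5% of all tested probe sets.

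**Figure D3:**
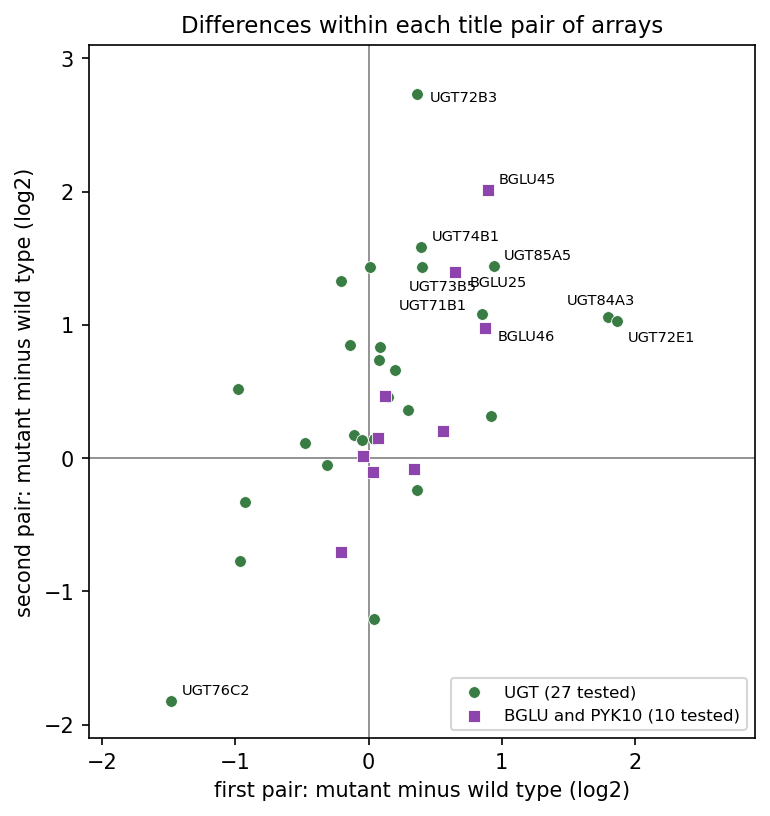
Difference between ein3 eil1 and wild type within the first title pair (horizontal, log2) and within the second (vertical, log2) for the 37 tested members, with UGT genes as circles and BGLU genes and PYK10 as squares. Of these, 21 lie above 0 in both pairs and 5 below 0 in both, and UGT76C2 lies farthest towards the lower left.

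Agreement between the title pairs and the spread inside a genotype set the limits of these comparisons. A positive difference in both title pairs was found in 21 of the 37 tested members (background 29.5%) and a negative one in 5 (background 27.4%). The 21 include UGT73B5, UGT84A3 and BGLU45, which passed the filter through the mutant arrays alone, so the filter favoured that sign. In 25 members the larger gap between the arrays of a genotype exceeded the difference between genotypes, against 79% of all tested probe sets. The median gap between the wild-type arrays was 0.63 in the UGT genes and 0.29 in the BGLU genes, and the median gap between the mutant arrays was 0.35 and 0.42. Over all tested probe sets these gaps were 0.37 and 0.33.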

How the data were processed

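The authors deposited linear MAS5 signal intensities, 1 for each probe set on each array, per the submitters' processing notes. For the MAS5 version, the scaling target and detection calls, nothing was given in the sources used here. The 64 control probe sets were left out of the tests. Genotypes were taken from the labels, and replicates were numbered in accession order. From the intensities, log2(value + 3) was quantile normalised, the 14031 probe sets that reached the 40th percentile of their array on 2 or more arrays were tested, and the genotypes were set against each other with limma 3.58.1 (R 4.3.3, mean-variance trend, two-sided, Benjamini-Hochberg over all tested probe sets, threshold 0.05). Adding 3 shrinks the fold change of dim signals, but such signals can also differ widely between arrays of a genotype. BGLU27, for example, had deposited signals of 1.7 and 27.9 in the mutant. Genes were named through the platform annotation, and all 68 members had the same symbol in RefSeq (assembly TAIR10.1). Members and lists were chosen with earlier results of these data known. All 4 array values were to be given for members past the threshold in either fit, the 6 UGT and 4 BGLU genes with the largest differences, and hormone-related members; listed pathway genes were counted, with values for those past the threshold or, if none, the 2 with the largest differences. Values of other members were added after they were seen. The alternatives changed the pseudocount, filter, scaling or variance model, left out 1 array, or added a block for the title pair. The fit was tested on simulated data. With 2 arrays per genotype precision is limited, and the p values measure only the spread between these arrays. The titles call 1 array per genotype a biological replicate and do not say whether its plants were grown separately. The title pairs share Bacillus control levels, but the labels state no pairing. Figures were drawn with matplotlib 3.10.9.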

Additional observations from a re-analysis of the deposited data

Results flagged for a closer look

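A probe set outside the set of members was higher in both mutant arrays than in both wild-type arrays. The annotation lists it for 2 genes, both with UGT symbols, so it names no single gene. It read 6.74 and 7.35 in wild type against 8.82 and 9.10 in the mutant, which differs by 1.91 on the log2 scale (SE 0.32, limma adjusted p = 0.072, and 4.3e-04 with the title pair as a block), with 2.07 and 1.75 in the title pairs.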

How the results depend on the processing

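No UGT or BGLU member passed in the comparison as designed, and none passed with either other pseudocount, filter, scaling or variance model. With the replicate block (the title pair), 3 UGT and 2 BGLU members passed, and 391 of all tested probe sets (177 higher, 214 lower) against 41 (11 higher, 30 lower) without it. Without 1 array in turn, between 0 and 4 UGT members and 0 BGLU members passed, and between 108 and 242 probe sets. Fits without an array take the lone array to vary like the other genotype. The probe sets called were 14 without a filter, 95 under the deposited scaling (59 higher, 36 lower) and 72 with median centring. The UGT and BGLU medians were 0.73 and 0.61 under the deposited scaling, where the median of all probe sets was 0.40; without 1 array in turn they ran from 0.16 to 0.53 and from 0.14 to 0.32.

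Of 204 values of the 16 tested named members under alternatives, 8 changed sign, all of differences that passed nowhere. PYK10 was 0.28 under the deposited scaling, and without 1 array it ran from -0.15 to 0.12 (0.07 without wild type replicate 2). UGT76C1 ran from -0.11 to 0.24, and it was -0.11 and -0.07 without the first array of each genotype in turn. UGT71C5 ran from -0.35 (without wild type replicate 2) to 0.53, with -0.29 when ein3 eil1 replicate 1 was left out, and UGT76B1 ran from -0.25 (without wild type replicate 2) to 0.95. UGT76C2 ran from -2.06 to -1.24 without 1 array in turn and UGT72E1 from 0.84 to 2.04. The cause was not tested. Signals below the 40th percentile depend on the pseudocount.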

Other observations

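A further 3 probe sets whose annotation names several genes hold a UGT or BGLU symbol. The first, listed for 2 genes with BGLU symbols, read 9.06 and 8.38 in wild type against 8.05 and 7.52 in the mutant, which differs by -0.93 on the log2 scale (SE 0.35, limma adjusted p = 0.676, and 0.048 with the title pair as a block). Both mutant arrays lay below both wild-type arrays, by 1.00 in the first title pair and 0.86 in the second. The other probe sets, each listed for 1 UGT gene and 1 other gene, differed by -0.12 and 0.66 and overlapped between genotypes.

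Of the 31 members too dim to test, 9 had both mutant arrays above both wild-type arrays, 4 had both below, and 18 overlapped. Over all probe sets with no filter, the background was 16.4% above and 16% below. No share was computed for the dim probe sets alone, and signals this low carry little information on a difference. UGT73B4, next to UGT73B5 on chromosome 2, had deposited signals of 2.9 and 2.8 in wild type against 15.5 and 32.5 in the mutant. BGLU19 had 11.9 and 1.3 in wild type against 39.7 and 24.9 in the mutant. BGLU31 had 12.8 and 10.7 in wild type against 6.7 and 2.4 in the mutant, and UGT73C1 had 3.3 and 5.2 against 2.3 and 2.1. These 4 were named after their values were seen.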
